A study of Mus musculus with 18 samples.

Results

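The potassium channel genes described here are the protein-coding mouse genes whose symbol starts with Kcn. Membership followed from the name, but the family was taken up with earlier results of these data known. Transcripts of 93 such genes were in the deposited tables, and 60 of them reached at least 0.5 CPM (estimated counts scaled to library size) in 3 or more of 18 libraries. These 60 genes, out of 15347 that passed the same filter, entered the tests. Transcripts of Kcnj11 were not matched, and its level was not analysed here.

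RNA was measured by polyA-selected sequencing of mouse heart ventricles at E14.5, mid-gestation. Irx3 and Irx4 encode transcription factors of the Iroquois family that are expressed in the developing ventricle. The 5 groups were wild type (WT, 3 libraries), Irx3KO (3), Irx4KO (3), animals labelled heterozygous for both genes (Irx3het_Irx4het, called dHet here, 3), and animals labelled knockout for both (Irx3KO_Irx4KO, called DKO here, 6). The labels give neither strain nor sex, do not describe the alleles, and leave unsaid whether libraries are from different embryos. The p-values below therefore measure the spread between libraries, which may be technical. Of the ventricle as a whole, a lower level can come from fewer cells of a type or from less RNA per cell, and these cannot be told apart.

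The libraries held between 26721576 and 45946741 estimated counts. They fall into a pair of sets that differ technically: set 1 holds WT 1, 2 and 3 with DKO 5, 7 and 10, and set 2 holds the other 12 libraries, among them DKO 2, 3 and 4. Genotypes were compared within a set, so no single mutant or dHet library was compared with WT. Fits without a set term, given below as alternatives, merged the DKO libraries of both sets. Their comparisons of DKO therefore mix genotype with the difference between the sets. Between DKO libraries of set 2 and set 1, which carry the same label, 3140 of 15347 genes (20.5%) passed the threshold used below, and so did 13 of the 60 channel genes (10 higher and 3 lower in set 2, beside 11.6% and 8.82% of all genes). Irx3 stood at 24.8 ± 3.33 CPM in WT (SD, n = 3, as for all SDs below), at 25 ± 2.36 in Irx4KO, at 13.2 ± 0.273 in dHet, at 2.85 ± 0.276 in Irx3KO, and at 3.73 ± 0.563 and 3.66 ± 0.31 in DKO of set 1 and set 2. Counts of Irx4 were not lower in the libraries labelled as Irx4 mutants. They were 95.2 ± 26.1 CPM in WT, 145 ± 11.4 in Irx3KO, 186 ± 7.89 in dHet, 226 ± 12.4 in Irx4KO, and 251 ± 32.9 and 230 ± 6.9 in DKO of set 1 and set 2. The Irx4 count therefore does not check the Irx4 part of the labels. Ventricular cardiomyocyte markers summed to between 18808 and 22940 CPM in every library. Counts of Y-linked genes summed to 1.44 CPM in dHet 2, 1.1 in DKO 4 and 0.911 in WT 3, and to between 98.1 and 299 in the other libraries. The groups were thus not balanced in Y-linked counts.

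Potassium channels end the cardiac action potential and hold the resting membrane potential. Voltage-gated alpha subunits form pores that open on depolarisation, accessory subunits of the KCNE, KChIP and beta families change their gating or surface level, inward rectifiers stabilise the resting potential or answer to G proteins and ATP, two-pore channels carry background current, and calcium- or sodium-activated channels respond to ions inside the cell. In the adult ventricle the related factor Irx5 is known for regional control of the repolarising channel Kv4.2.

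Levels of different genes were compared in TPM, a level scaled by transcript length as well as by library size. The most abundant channel transcript was Kcne1, the accessory subunit that slows the KvLQT1 channel, with a mean of 129 TPM over the 18 libraries. Kcng2, a modifier subunit that gives no current by itself, followed at 90 TPM, but its only transcript in the tables is 705 nucleotides long, so its level per length rests on a short model. Kcnh2, the ERG channel of the rapid delayed rectifier current, stood at 70.4 TPM. Kcnk3, the acid-sensitive background channel TASK-1, and Kcnj5, a subunit of the G protein-gated channel of the acetylcholine response, both stood at 26.5 TPM. Kcnq1, the pore partner of Kcne1, stood at 5.65 TPM, far below its accessory subunit.

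Below these 5 genes the levels formed a gentle slope. Kcnj3, the other cardiac G protein-gated subunit, had 10.6 TPM, Kcnj2, a subunit of the inward rectifier current, 9.51, and Kcne3, an accessory subunit, 9.09. Kcnn2, the small-conductance calcium-activated channel SK2, led the ion-activated family with 8.74 TPM, and Kcnj8, the pore of an ATP-sensitive channel, had 8.6. Kcnrg, which is no pore subunit, had 1.18 TPM. In all, 37 of 93 genes had a mean of at least 1 TPM. Neighbours in this order below rank 5 differed by less than the range over their libraries.

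**Figure D1:**
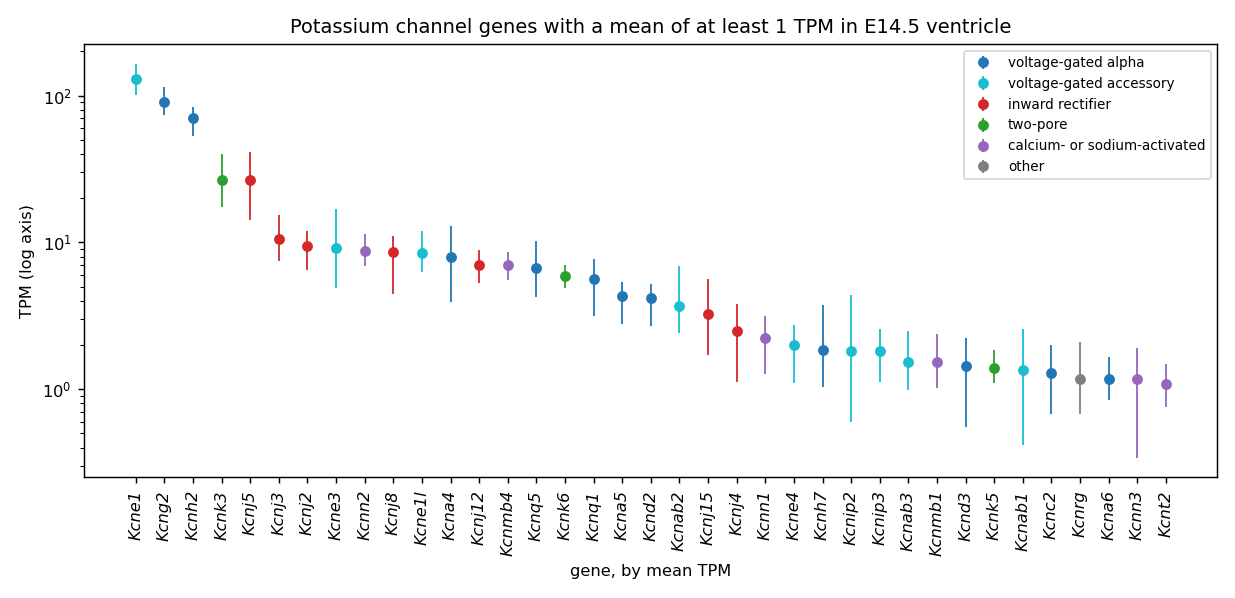
Mean TPM over 18 libraries (points, log axis) of the 37 potassium channel genes with a mean of at least 1 TPM, with bars from the lowest to the highest library, coloured by family. Kcne1, Kcng2 and Kcnh2 stand above all others, and the bars of neighbouring genes overlap over most of the order.

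Families differed in how many members were measurable. The filter was passed by 25 of 40 voltage-gated alpha genes, 11 of 12 accessory genes, 8 of 14 inward rectifiers, 6 of 14 two-pore genes, 9 of 12 ion-activated genes and by Kcnrg. The summed level of all 93 genes was 479 ± 39.1 TPM in WT and 452 ± 13.4 in DKO of set 1. In set 2 it was 490 ± 35.5 in DKO, 498 ± 9.12 in Irx3KO, 516 ± 28.9 in Irx4KO and 516 ± 35 in dHet. The SDs of these groups overlap within each set. The 5 most abundant genes held between 68 and 72.5% of the sum in every library.

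Of 60 channel genes, 1 rose (Kcnh7) and 1 fell (Kcnk3) between WT and DKO in set 1, where 0.684% of all genes rose, 0.899% fell and 1.58% in all passed the threshold, an adjusted p under 0.05 by edgeR's quasi-likelihood test with Benjamini-Hochberg adjustment over 15347 genes. Without adjustment, 16 of the 60 (26.7%) had a p under 0.05, beside 14.4% of all genes. The same 2 genes passed between Irx3KO and DKO in set 2 (0.45% of all genes), Kcnh7 alone passed between dHet and DKO (0.0977%), and Kcnk3 alone between Irx4KO and Irx3KO (0.306%). No channel gene passed between DKO and Irx4KO (0.0261% of all genes), Irx3KO and dHet (0.00652%) or Irx4KO and dHet (0.013%) in the planned edgeR fit of all 18 libraries. At an unadjusted p under 0.05 these 3 comparisons held 6.67%, 10% and 13.3% of the 60 channel genes (4, 6 and 8), beside 5.9%, 4.22% and 5.46% of all genes. DESeq2 called 0, 0 and 1 channel genes there, and 25, 12 and 32 of all genes. An edgeR fit of set 2 alone also called 0, 0 and 1 channel genes, and 4, 2 and 12 of all genes. The single test for any difference among the 4 genotypes of set 2 called Kcnk3 and Kcnh7 (0.397% of all genes). The set 2 comparisons share libraries, so their results are not independent of each other. The median log2 fold change of the 60 genes lay between -0.03 and 0.05 in all 7 pairwise comparisons, with a median of 0.00 over all genes.

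**Figure D2:**
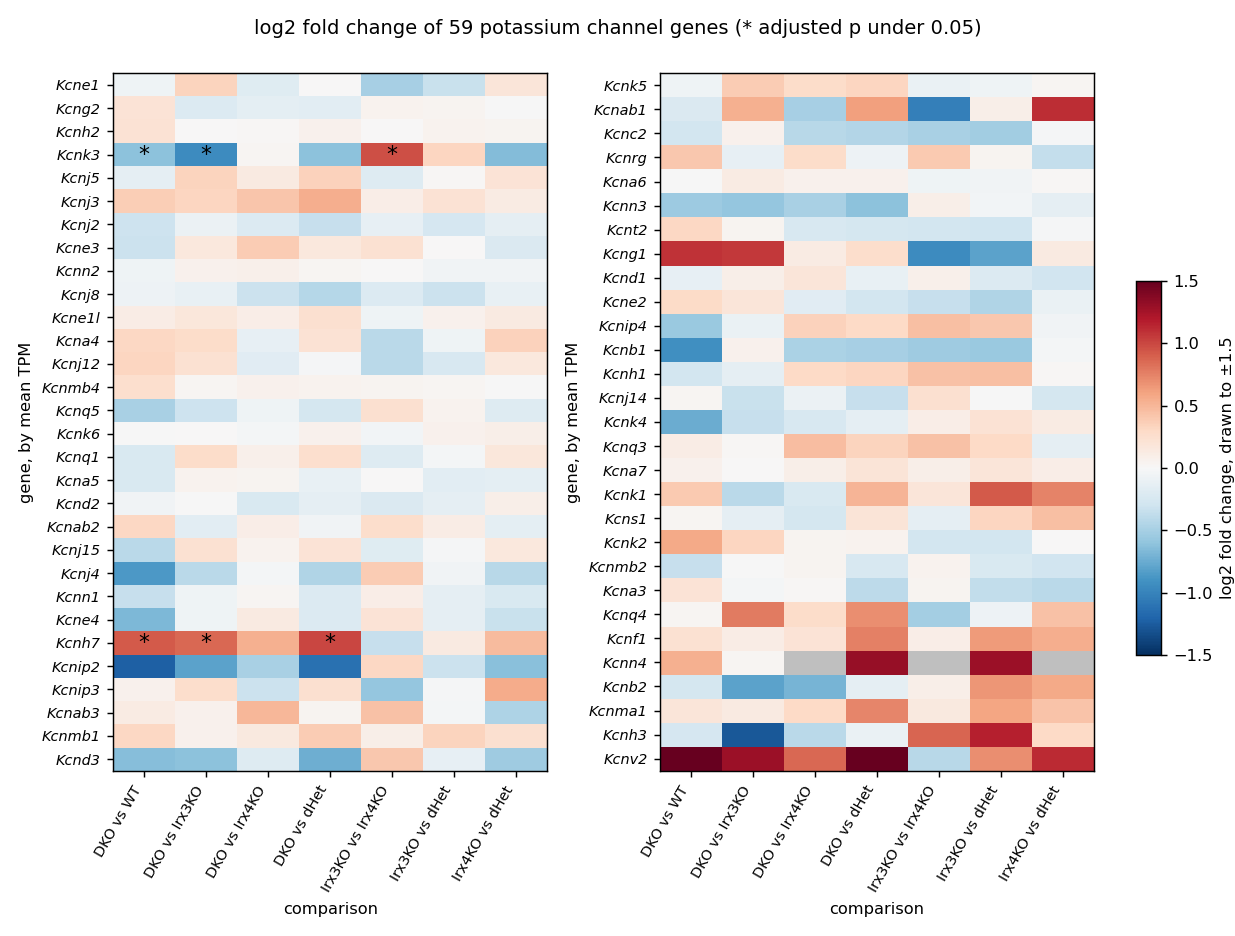
Fitted log2 fold changes (colour, drawn to ±1.5, red where the first-named group is higher) of 59 of the 60 tested potassium channel genes in the 7 pairwise comparisons, genes ordered by mean TPM, with stars where the adjusted p is under 0.05. Stars stand only in the rows of Kcnk3 and Kcnh7, Kcnn4 is grey where 1 group was at 0, and the strongest colours without a star lie among the least abundant genes.

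Kcnk3 had the lower level in the libraries labelled Irx4KO or DKO. In WT 1, 2 and 3 it stood at 91, 104 and 71.5 CPM, and in DKO 5, 7 and 10 of the same set at 53.7, 53.5 and 65.8 CPM. All 3 DKO libraries were below all 3 WT libraries. The level fell by 0.62 on the log2 scale (SE 0.119, 1.54-fold lower, edgeR adjusted p = 0.014).

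In set 2, Kcnk3 stood at 102, 103 and 89.4 CPM in Irx3KO 1, 2 and 4 and at 86.4, 76.8 and 73 CPM in dHet 2, 3 and 4. In Irx4KO 2, 3 and 4 it stood at 48, 51 and 51.3 CPM, and in DKO 2, 3 and 4 at 53.7, 45.5 and 54.6 CPM. The Irx4KO and DKO libraries overlapped each other and lay below every Irx3KO and dHet library. TASK-1 transcripts were thus at 98.1 ± 7.53 CPM in Irx3KO and 50.1 ± 1.81 in Irx4KO, a log2 difference of 0.97 ± 0.12 (SE, edgeR adjusted p = 0.0012).

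Against Irx3KO, Kcnk3 in DKO fell by 0.94 on the log2 scale (SE 0.119, edgeR adjusted p = 0.0023). Against dHet the estimates were -0.62 ± 0.119 for DKO (adjusted p = 0.073) and -0.65 ± 0.119 for Irx4KO (adjusted p = 0.1). Neither passed the threshold in the planned edgeR fit. DESeq2 called both, with adjusted p of 0.00039 and 0.00017, and so did an edgeR fit of set 2 alone (0.0064 and 0.01). For DKO against dHet, an edgeR fit with the replicate number as a block in set 2 also called Kcnk3 (0.024). So did a fit without a set term (0.021), which set DKO of both sets against dHet of set 2. Between DKO and Irx4KO the estimate was 0.03 ± 0.12 (adjusted p = 0.99), and between Irx3KO and dHet 0.32 ± 0.118 (adjusted p = 1). A comparison added after the data were seen, of the 6 set 2 libraries labelled Irx4KO or DKO with the other 6, gave -0.79 ± 0.0844 (edgeR adjusted p = 0.00025, with 0.893% of all genes called and Kcnk3 and Kcnh7 the 2 channel genes among them). The call between WT and DKO did not hold without DKO 7 (adjusted p = 0.05), WT 1 (0.057) or WT 2 (0.053), nor in a fit of set 1 alone (0.2), while the estimate stayed between -0.62 and -0.49 in these 4 fits.

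Kcnh7, which encodes ERG3, a channel of the same family as Kcnh2, was a low transcript with a mean of 1.86 TPM. Its longest transcript, of 13321 nucleotides, held between 91.3 and 96.5% of its counts in every library. The 250 bases before its RefSeq start (GRCm38.p6, chr2:63184288-63184537, minus strand) are shown because it is the member that rose. Capitals mark 4 copies of the GC box GGGCGG, read here as CCGCCC on the gene's strand.

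Kcnh7: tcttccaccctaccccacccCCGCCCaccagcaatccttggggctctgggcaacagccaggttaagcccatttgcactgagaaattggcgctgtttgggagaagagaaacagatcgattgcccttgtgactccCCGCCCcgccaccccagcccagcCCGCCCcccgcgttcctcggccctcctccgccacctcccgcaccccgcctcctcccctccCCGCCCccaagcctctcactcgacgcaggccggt

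This window is 67.6% G or C, beside a median of 52.4% over all promoters of the table, and it holds 16 CpG pairs. The Iroquois site ACANNTGT, which reads the same on both strands, does not occur in it. Of 32851 RefSeq promoters 6.31% hold that site in their 250 upstream bases, as do 2 of 60 promoters (3.33%) of the 43 tested channel genes with an entry, those of Kcna7 and Kcnip4. GGGCGG on either strand was in 25 of these 60 promoters (41.7%) and in 32.7% of all.

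In set 1, Kcnh7 stood at 8.24, 9.91 and 8.38 CPM in WT 1, 2 and 3 and at 13.7, 17 and 19.3 CPM in DKO 5, 7 and 10. Every DKO library exceeded every WT library. Kcnh7 rose by 0.92 ± 0.145 on the log2 scale (SE, 1.89-fold, edgeR adjusted p = 0.0044).

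In set 2 the channel had its highest levels in DKO 2, 3 and 4, at 18.8, 21.5 and 26.3 CPM. It stood at 16.38, 15.36 and 14.47 CPM in Irx4KO 2, 3 and 4. Irx3KO 1, 2 and 4 had 11, 12.8 and 12.8 CPM, and dHet 2, 3 and 4 had 12.6, 9.43 and 11.2 CPM. The DKO libraries lay above all others of set 2, the Irx4KO libraries came next without overlap, and Irx3KO and dHet libraries overlapped.

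Kcnh7 rose in DKO by 0.86 ± 0.144 over Irx3KO (log2, SE, edgeR adjusted p = 0.012) and by 1.00 ± 0.145 over dHet (adjusted p = 0.0069). Over Irx4KO the estimate was 0.53 ± 0.143 (adjusted p = 0.65), and Irx4KO stood 0.48 ± 0.145 above dHet (adjusted p = 0.58), so neither step passed the threshold. Pooling the 6 libraries labelled Irx4KO or DKO against the other 6 of set 2, as added after the data were seen, gave 0.67 ± 0.102 (edgeR adjusted p = 0.0039). The same pooling by Irx3 (Irx3KO and DKO against Irx4KO and dHet) called 0 channel genes in edgeR (0.0261% of all genes) and in DESeq2 (56 of all genes), with 10 of 60 (16.7%, beside 7.55% of all genes) at an unadjusted p under 0.05, and gave 0.33 ± 0.102 for Kcnh7 (adjusted p = 0.48). Also added was the departure of DKO from the sum of the Irx3KO and Irx4KO differences, each taken from dHet. As the baseline is dHet and not WT, it does not measure whether the effects of the knockouts add up. The departure was 0.39 ± 0.203 for Kcnh7 and -0.28 ± 0.168 for Kcnk3, each with an adjusted p of 1. No gene of 15347 (0%) passed that test in the edgeR fit of all 18 libraries, and 420 had an unadjusted p under 0.05. DESeq2 called 1 gene, which was not a channel gene.

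In set 2 the calls of Kcnh7 depended on single libraries and on the counts used. Against Irx3KO the adjusted p was 0.074 without DKO 4 and 0.1 without Irx3KO 1, and against dHet it was 0.06 without DKO 4 and 0.065 without dHet 3. With counts rebuilt from TPM the adjusted p was 0.15 against Irx3KO and 0.11 against dHet, and with the replicate number as a block in set 2 it was 0.088 against Irx3KO. Between WT and DKO the call held without each library in turn, but the adjusted p was 0.093 in set 1 alone and 0.06 with counts rebuilt from TPM. Between DKO libraries of set 2 and set 1 Kcnh7 differed by 0.41 ± 0.142 (adjusted p = 0.05) and Kcnk3 by -0.17 ± 0.119 (adjusted p = 0.34).

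**Figure D3:**
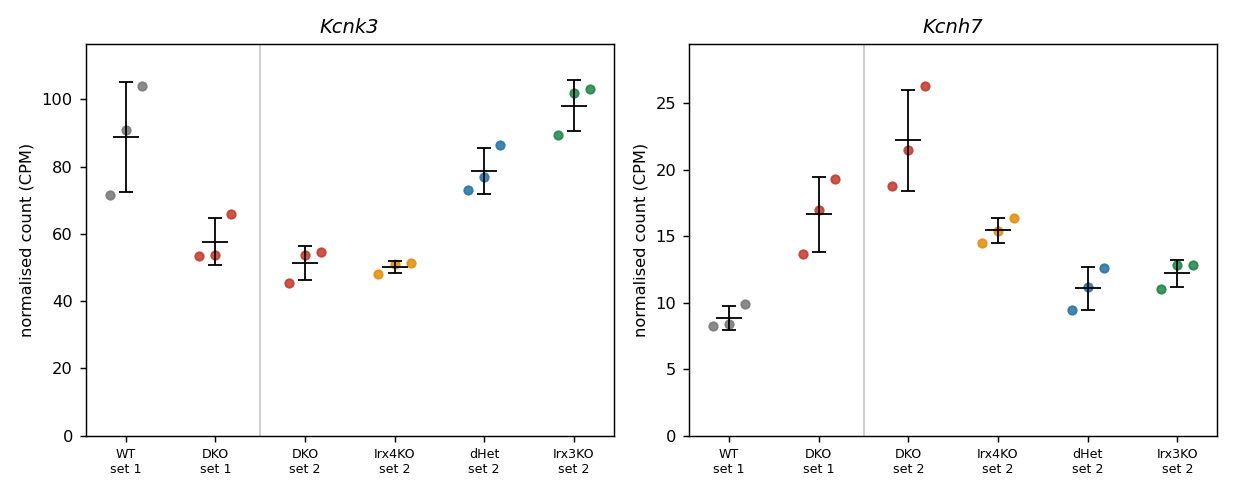
Normalised counts (CPM) of Kcnk3 and Kcnh7 in each library (points) by genotype and set, with mean and SD (bars, n = 3), and a grey line between the sets. Kcnk3 is at 45.5 to 65.8 CPM in DKO and Irx4KO libraries and at 71.5 or more in all others. The mean of Kcnh7 is 8.84 in WT and 16.7 in DKO of set 1. In set 2 its highest mean, 22.2, is in DKO.

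Summed cell-type markers also separated some of the groups compared. The marker lists were chosen with earlier results of these data known. The 7 atrial markers summed to between 2503 and 3304 CPM in WT and between 3761 and 4284 in DKO of set 1. Of the 7, 3 were called higher (Myl7, Stard10 and Myl4), beside 0.684% of all genes. Most of the sum was Myl4, Nppa and Myl7, with means of 1389, 1081 and 343 CPM in WT. In set 2 the sum was 3027 to 3209 CPM in DKO, 2389 to 2467 in Irx3KO, 2480 to 2697 in Irx4KO and 1993 to 2691 in dHet. No atrial marker was called in the 6 pairwise comparisons (0.00652 to 0.45% of all genes), while Stard10 was called higher in the pooled Irx4 comparison (0.893%). The atrial markers did not move together in set 2. For DKO against Irx4KO, the log2 estimates of Sln, Nr2f1 and Nr2f2 were -0.31, -0.26 and -0.09. Those of Myl7, Myl4, Stard10 and Nppa were 0.30, 0.18, 0.18 and 0.37. Each marker had the same direction for DKO against Irx3KO. None of the 7 had a mean under 1 CPM. The 5 erythroid markers, of which 1 was under 1 CPM on average, summed to 66.4 to 90.1 CPM in WT and 43.1 to 65.3 in DKO of set 1. In set 2 they summed to 49.1 to 75.3 CPM in DKO, 80.5 to 101 in Irx3KO, 60 to 132 in Irx4KO and 69.3 to 77.7 in dHet. DKO thus lay below WT and Irx3KO without overlap, with 0 of 5 called (beside 1.58% and 0.45% of all genes). The 5 endothelial markers summed to 803 to 861 CPM in DKO of set 2, 868 to 902 in Irx4KO and 889 to 957 in dHet. There too 0 of 5 were called, beside 0.0261% of all genes against Irx4KO and 0.0977% against dHet. The 5 glia and neural crest markers, 3 of them under 1 CPM on average, summed to 30.4 to 34.7 CPM in DKO of set 2 and 27.1 to 29.9 in Irx4KO. Of the 2 tested, 0 were called. The part of these cells in the Kcnk3 and Kcnh7 results was not tested. Neuronal markers, of interest because ERG3 is known from the nervous system, summed to between 28.3 and 36.8 CPM over the 18 libraries, with 5 of 9 under 1 CPM on average. Of the 7 neuronal markers tested, none was called in any genotype comparison, where at most 1.58% of all genes passed. At these shares a few markers without a call do not show that their cells were level.

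Other voltage-gated alpha subunits came near the threshold of the planned edgeR fit without passing it. Kcng1 and Kcnv2 are modifier subunits that form no channel by themselves, and Kcnd3 (Kv4.3) carries transient outward current. Kcng1 stood at 0.91, 1.42 and 2 CPM in WT and at 3.34, 2.63 and 3.19 in DKO of set 1, without overlap (1.08 ± 0.286, edgeR adjusted p = 0.069). In set 2 its levels were 1.8, 2.24 and 3.09 CPM in DKO, 1.72, 2.47 and 2.36 in Irx4KO, 1.55, 2.21 and 2.21 in dHet, and 1.04, 1.51 and 0.861 in Irx3KO. The Irx3KO libraries were the lowest of set 2, and the estimate for DKO over Irx3KO was 1.06 ± 0.292 (adjusted p = 0.18). DESeq2 called Kcng1 in both comparisons, with adjusted p of 0.012 against WT and 0.049 against Irx3KO. An edgeR fit without a set term, with DKO of both sets merged, called it against Irx3KO (adjusted p = 0.024).

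Kcnv2 was close to the detection floor throughout. It stood at 0.0738, 0.129 and 0.19 CPM in WT and at 0.332, 0.591 and 0.443 in DKO of set 1 (1.76 ± 0.44, edgeR adjusted p = 0.055). In set 2 it stood at 0.874, 0.756 and 0.538 CPM in DKO and at 0.203, 0.109 and 0.241 in dHet (1.98 ± 0.425, adjusted p = 0.096). The DKO libraries lay above WT and dHet libraries in both cases. DESeq2 called the comparison with dHet (adjusted p = 0.03) and gave no adjusted p for that with WT. An edgeR fit without a set term, with DKO of both sets merged, called both (adjusted p = 0.021 against WT and 0.045 against dHet). EdgeR also called the comparison with WT with the length trend removed (0.042) and that with dHet in set 2 alone (0.048). Kcnv2 passed the filter on its higher libraries, so its presence among the 60 is tied to those levels.

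Kcnd3 had its lowest mean in DKO within each set, but no comparison passed in the planned edgeR fit. It stood at 6.74, 6.22 and 6.26 CPM in WT and at 3.74, 3.04 and 5.55 in DKO of set 1 (-0.64 ± 0.196, edgeR adjusted p = 0.13). In set 2 it stood at 3.96, 5.75 and 5.75 CPM in DKO, 6.53, 5.66 and 5.49 in Irx4KO, 8.02, 9.19 and 6.33 in Irx3KO, and 8.57, 8.04 and 8.97 in dHet. DKO and dHet libraries did not overlap (-0.73 ± 0.195, adjusted p = 0.16), while DKO and Irx4KO libraries did. The pooled comparison of libraries labelled Irx4KO or DKO with the rest of set 2 gave -0.57 ± 0.137 (adjusted p = 0.064). DESeq2 called Kcnd3 between WT and DKO (adjusted p = 0.046), between dHet and DKO (0.03) and in the pooled comparison (0.0048). An edgeR fit without a set term, with DKO of both sets merged, called it for DKO against dHet (0.021) and Irx3KO (0.032). That fit also called Kcnd3 in the pooled comparison (0.027). An edgeR fit of set 2 alone also called Kcnd3 in the pooled comparison (0.023).

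Kcnd2 (Kv4.2), the partner in the same current, stood at 13 ± 1.06 CPM in WT and 12.6 ± 2.3 in DKO of set 1. For DKO against Irx4KO the estimate was -0.23 ± 0.124 (edgeR adjusted p = 0.89). Kcnip2, which encodes the KChIP2 subunit of Kv4 channels, was low and variable. WT libraries had 4.35, 1.16 and 2.93 CPM and DKO libraries of set 1 had 1.37, 1.08 and 1.17, so the groups overlapped through WT 2 (-1.22 ± 0.49, adjusted p = 0.26). In set 2 it stood at 0.929, 2.48 and 1.05 CPM in DKO and at 2.34, 4.42 and 2.98 in dHet, again with overlap.

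**Figure D4:**
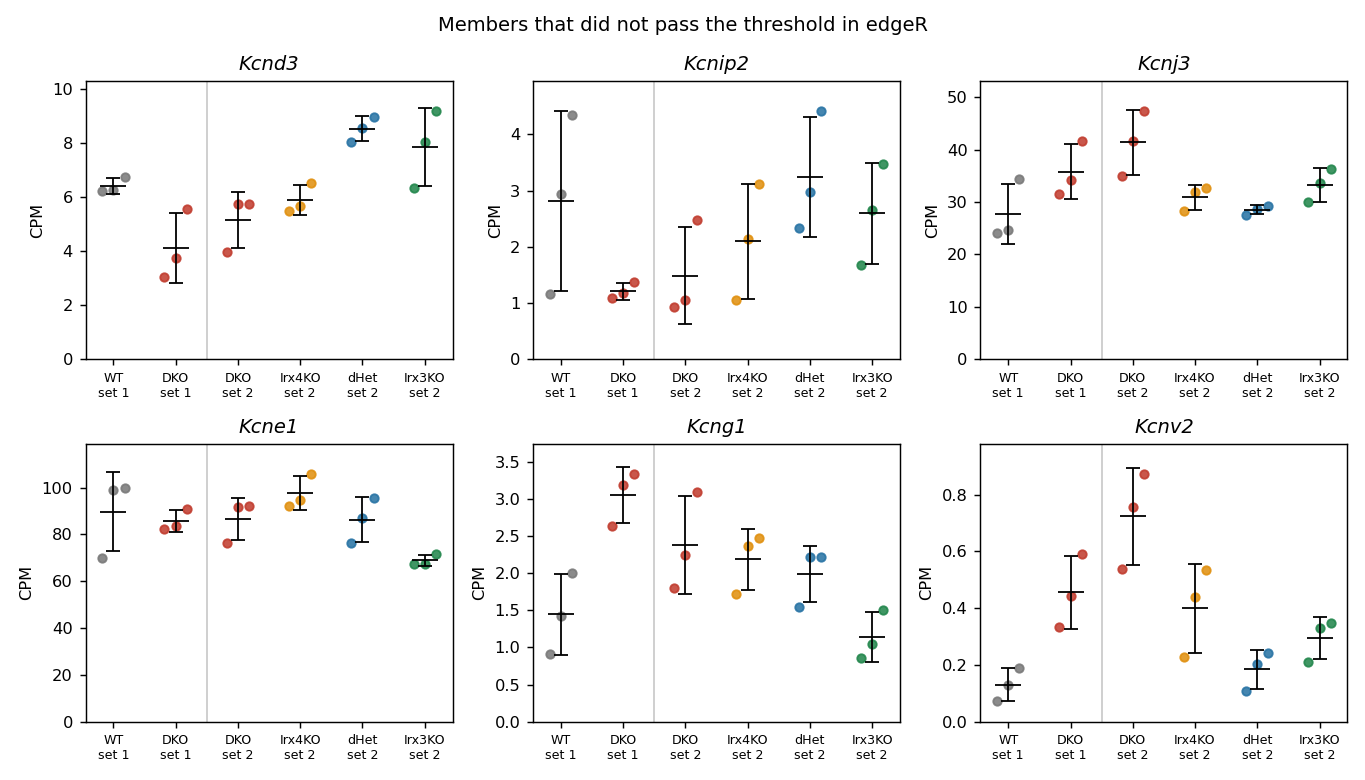
CPM of 6 channel genes that did not pass the threshold in the planned edgeR fit, in each library (points) by genotype and set, with mean and SD (bars, n = 3). Kcnd3 and Kcnip2 have lower means in DKO than in WT, Kcng1 and Kcnv2 higher ones, and Kcne1 is lowest in Irx3KO.

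Kcnq5, a voltage-gated subunit of the M-current family, stood at 18.95, 22.14 and 16.02 CPM in WT and at 11.56, 14.54 and 14.61 in DKO of set 1 (-0.49 ± 0.139, edgeR adjusted p = 0.096, DESeq2 adjusted p = 0.034). It also differed between the sets within DKO, by 0.49 ± 0.14 (adjusted p = 0.021), and set 2 held 19.1 ± 2.34 CPM in DKO. Kcna4 (Kv1.4) was 12.5 ± 1.22 CPM in WT and 15.4 ± 3.32 in DKO of set 1, and 23 ± 1.04 in DKO of set 2, a difference between the sets of 0.58 ± 0.131 (adjusted p = 0.0059). Genotype differences of these genes across the sets are therefore not read here.

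Kcnh2, unlike Kcnh7, kept a high level in all groups. It stood at 127, 127 and 135 CPM in WT and at 173, 133 and 146 in DKO of set 1, and at 138 to 162 CPM in all libraries of set 2. The estimate between WT and DKO was 0.22 ± 0.0809 (edgeR adjusted p = 0.21). Its transcript of 3193 nucleotides held between 6.46% of the gene's counts (Irx3KO 2) and 23.8% (DKO 5). That share averaged 17.8 ± 4.33% in WT and 20 ± 4.36% in DKO of set 1, and 9 ± 2.29% in Irx3KO, 11.8 ± 3.94% in DKO, 13.6 ± 1.2% in dHet and 15 ± 2.99% in Irx4KO of set 2. The shares were estimated by kallisto and no test was made of them.

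No accessory subunit passed in the planned edgeR fit. Kcne1 was lowest in Irx3KO, at 67.4, 67.5 and 71.7 CPM, and highest in Irx4KO, at 94.8, 106 and 92.3 CPM. These groups did not overlap, but the estimate of -0.50 ± 0.117 for Irx3KO against Irx4KO had an edgeR adjusted p of 0.077. It passed in DESeq2 (adjusted p = 0.0069) and in an edgeR fit of set 2 alone (0.021). DKO libraries of set 2 lay between them at 92, 91.5 and 76.3 CPM. The dHet libraries, at 86.9, 95.5 and 76.5 CPM, overlapped those of Irx4KO. Kcnab1, a beta subunit of Kv1 channels, stood at 4.46, 4.15 and 3.82 CPM in Irx4KO and at 2.11, 1.06 and 2.62 in dHet (1.11 ± 0.322, edgeR adjusted p = 0.58). DESeq2 called Kcnab1 in the pooled comparison of libraries labelled Irx4KO or DKO (0.82 ± 0.233, adjusted p = 0.025), as did an edgeR fit of set 2 alone (0.031).

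Inward rectifiers split in direction, and none passed in the planned edgeR fit. Kcnj3 stood at 24.7, 34.4 and 24 CPM in WT and at 31.6, 34.2 and 41.6 in DKO of set 1, which overlapped. In set 2 it stood at 35, 41.7 and 47.4 CPM in DKO and at 28.6, 27.6 and 29.3 in dHet, without overlap (0.54 ± 0.139, edgeR adjusted p = 0.15). It passed there in DESeq2 and in an edgeR fit of set 2 alone, each with an adjusted p of 0.026. Its partner Kcnj5 was 70.5 ± 4.78 CPM in WT and 64.3 ± 13.2 in DKO of set 1, and 106 ± 21 in DKO and 83.8 ± 6.38 in dHet of set 2. Kcnj2 was 41.2 ± 3.66 CPM in WT and 33.2 ± 6.17 in DKO of set 1 (-0.31 ± 0.136, adjusted p = 0.3), and 33.1 ± 6.67 in DKO and 41.9 ± 4.17 in dHet of set 2 (-0.34 ± 0.137, adjusted p = 0.41). Kcnj4, another strong inward rectifier, had 4.47, 3.05 and 4.05 CPM in WT and 2.39, 2.34 and 1.63 in DKO of set 1 (-0.86 ± 0.26, edgeR adjusted p = 0.12, DESeq2 adjusted p = 0.044).

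Of the other 2-pore genes none passed in edgeR or DESeq2 in the 7 pairwise comparisons. Kcnk1, a weakly active background channel, stood at 1.14, 0.992 and 0.912 CPM in Irx3KO and at 0.61, 0.463 and 0.523 in dHet (0.92 ± 0.302, edgeR adjusted p = 1). None of the 9 ion-activated genes did either. Kcnn4 was listed at 0 in all 3 Irx4KO libraries and at 0 to 0.995 CPM elsewhere, so no fold is given for it.

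Genes that work with these channels came from a list of 28 partners, of which 24 were tested. The list was chosen with earlier results of these data known, so its count of calls is not independent of them. In the planned edgeR fit they gave 1 call between WT and DKO (1 rose and 0 fell, beside 0.684% and 0.899% of all genes). They gave 0 in each of the 6 pairwise comparisons in set 2, where 0.00652 to 0.45% of all genes passed. The gene that rose was Rgs6, a regulator that shortens G protein signalling to the Kcnj3 and Kcnj5 channel. It averaged 3.61 ± 0.46 CPM in WT and 7.13 ± 2.05 in DKO of set 1 (0.98 ± 0.21, edgeR adjusted p = 0.025). In set 2 it was 6.78 ± 0.98 CPM in DKO and 3.83 ± 0.498 in Irx3KO (0.82 ± 0.21, adjusted p = 0.13). Of 11 potassium pump and cotransporter genes, 0 rose and 0 fell in each of the 7 pairwise comparisons in the planned edgeR fit. There 0.00652 to 1.58% of all genes passed, so 0 of 11 does not set these genes apart.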

How the data were processed

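Estimated counts and TPM per Ensembl transcript are the authors' deposited values, per the file headers. They were made with kallisto 0.42.2, per the submitters' processing notes, which also list mm9. Which transcript release and strand option were used is not given in the sources used here. Of 88943 transcripts, 78030 (87.73%) matched GENCODE M21 and were summed per gene, and 6.43 to 6.78% of counts per library were not tied to a gene. Rounded sums were scaled by TMM and fitted over all 18 libraries with 1 mean per genotype and set by edgeR 4.0.16 (R 4.3.3), after a minimum of 0.5 CPM in 3 libraries. DESeq2 1.42.0 was an alternative. The test was run on simulated data without a difference between the sets. In DKO of set 1, 100 genes above 1 CPM were changed by 1 and 100 by 2 on the log2 scale. Against WT, 85 and 98 of them were recovered and 5 unchanged genes were called. Smaller changes, and changes in genes under 1 CPM, were not simulated.

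Named genes were members called in any comparison, the 3 smallest p-values in each direction of each comparison, the 10 highest TPM and the top of each family, and Irx3 and Irx4; further genes named beside them (partner subunits and genes of the figures) were chosen after their values were seen. The members, gene lists and library sets were chosen with earlier results of these data known. Promoters came from RefSeq (GRCm38.p6), where 17 of 60 members had no entry. Of the 60 members, 1 is counted but not reported here by name.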

Additional observations from a re-analysis of the deposited data

How the results depend on the processing

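The number of channel genes called depended on the tool and on how the spread was pooled. With DESeq2 it was 7 for WT against DKO (2 in edgeR), 5 for DKO against dHet (1), 2 for Irx3KO against Irx4KO (1), 1 for Irx4KO against dHet (0), 4 for any difference in set 2 (2) and 4 for the pooled Irx4 comparison (2). Fitting each set alone gave 0, 4, 2 and 1 for the first 4 of these and 5 for the pooled one. Without a set term, which merges DKO of both sets, 4 were called for DKO against Irx3KO and 4 against dHet. Counts rebuilt from TPM gave 1 for WT against DKO, 1 for DKO against Irx3KO, 0 against dHet and 1 for any difference. Over all genes DESeq2 called 603, 178, 212, 32, 314 and 348 in the 6 comparisons of its sentence, against 243, 15, 47, 2, 61 and 137 in edgeR. Fits of each set alone called 13, 181, 144 and 12 for the first 4 and 353 for the pooled one, and fits without a set term 290 for DKO against Irx3KO and 314 against dHet. Counts from TPM gave 148, 31, 13 and 27 in the order above. WT against DKO gave 597 without DKO 5, 556 without DKO 10 and 87 without WT 1.

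Leaving out each library in turn gave 1 to 4 channel genes for WT against DKO (87 to 597 of all genes). It gave 1 to 2 for DKO against Irx3KO (16 to 45 of all genes) and 0 to 1 for DKO against dHet (3 to 18). Between the sets within DKO it gave 6 to 15 (13 with all libraries), beside 1779 to 3885 of all genes (3140 with all libraries). With the length trend removed 6 were called there (1408 of all genes), and with counts from TPM 8 (2724). The estimate of Kcnk3 for DKO against Irx4KO was -0.00 without DKO 2 and -0.01 without DKO 4, and at most 0.12 without any other library. Of 706 estimates for single genes with an adjusted p, 666 kept their direction and side of the threshold, 25 passed newly, 13 no longer passed and 2 changed sign. The cause of these changes was not tested. With the Y-linked counts as a covariate in edgeR, DKO kept the calls of Kcnk3 and Kcnh7 against WT (adjusted p = 0.023 and 0.0042) and against Irx3KO (0.0099 and 0.029). Kcnh7 kept its call against dHet (0.008), and Kcnk3 its call between Irx3KO and Irx4KO (0.0023).

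Replicate numbers gave no sign of pairing the samples. Among 15 same-numbered pairs in set 2, deviations correlated between -0.215 and 0.13, with 1 pair above 0.1. Among 39 differently numbered pairs the range was -0.223 to 0.273, with 4 above 0.1. With 3 libraries per group this cannot exclude a pairing. With the replicate block in set 2, 1 channel gene (Kcnk3) was called for DKO against Irx3KO (41 of all genes), 2 against dHet (33) and 1 for any difference (31). In set 1 no block could be fitted, because WT and DKO share no replicate number. Depth limits genes under about 1 CPM, such as Kcnv2 and Kcnn4.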
